A study of Mus musculus with 2 samples.

Results

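The regulators of mitochondrial biogenesis described here are 10 genes, taken by symbol from the 55536 annotated genes of the deposited tables: the PGC-1 coactivators Ppargc1a, Ppargc1b and Pprc1, the muscle factor Perm1, the nuclear transcription factors Nrf1 and Gabpa, and Tfam, Tfb1m, Tfb2m and Polrmt, which act on mitochondrial DNA. Each symbol matched 1 gene, and all 10 were measured in both libraries. The tissue was the gastrocnemius, the fast calf muscle, of male B6CASTF1/J mice, first-generation hybrids of the strains C57BL/6J and CAST/EiJ, taken at 14 days of age. There was 1 group without treatment and with 2 libraries, labelled biological replicates 1 and 2, each made from 300 ng of total RNA with ERCC control RNAs added. The labels mention 3 males and give both libraries 1 common donor identifier, which leaves unknown whether they hold RNA of different animals or of pools. No comparison of conditions was possible. What the tables allow is a ranking of the regulators within each library, their transcripts, and the difference between the libraries.

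In muscle, the number and capacity of mitochondria are set largely through the PGC-1 family. These coactivators do not bind DNA themselves but dock on transcription factors, among them the oestrogen-related receptors, the PPARs, NRF1 and the ETS factor GABP, and so raise genes of the respiratory chain and of fat oxidation. NRF1 and GABP in turn act on the nuclear genes for the mitochondrial transcription machinery: TFAM coats and bends mitochondrial DNA, POLRMT is its RNA polymerase, TFB2M helps the polymerase open the promoter, and TFB1M methylates the small mitochondrial ribosomal RNA. Contraction and adrenergic signalling are known to raise Ppargc1a in muscle, in part from an alternative promoter that lies upstream of the classical one.

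The short sequences below are shown because NRF1 and GABP are the named links between the coactivators and the mitochondrial transcription genes. They are 30 and 27 bases from the RefSeq promoter windows (GRCm38.p6, 250 bases before to 50 after a transcription start), each written 5′ to 3′ along its gene, with the matched letters in capitals. Windows were found for all regulators but Ppargc1b, 10 windows in all with a pair for Nrf1. The palindromic NRF1 motif, searched on both strands, was present in 1 of these 10 windows and in 4.6% of the 32851 windows of the table. In Polrmt it occurs as an overlapping pair, at chr10:79746565-79746594 on the minus strand. The ETS letters CCGGAAG, or CTTCCGG on the other strand, were present in 3 of the 10 windows and in 8.86% of all windows, at chr10:71238075-71238101 (minus) in Tfam, chr10:79746608-79746634 (minus) in Polrmt and chr16:84835021-84835047 (plus) in Gabpa. The NRF1 pair of Polrmt and the ETS match of Tfam overlap annotated exons, and the other matches shown do not. A match describes letters only, and the data hold no measurement of binding.
Polrmt, NRF1 letters: gcaggcgGCGCGTGCGCGTGCGCactgcgg
Tfam, ETS letters: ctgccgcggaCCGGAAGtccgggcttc
Polrmt, ETS letters: cctaagagcgCTTCCGGcagtcgcaga
Gabpa, ETS letters: agggtaagtgCTTCCGGgtccctcagc

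A further pair of promoters is shown for the regulator with the highest level, Perm1, and for the upstream start of Ppargc1a, whose use is measured below. The half-site of the oestrogen-related receptors, AAGGTCA or TGACCTT on the other strand, was present in 1 of the 10 windows, that of Perm1 (chr4:156215677-156215867, plus strand), and in 4.72% of all windows. The cyclic AMP response element TGACGTCA was present in none of the 10 windows and in 1.79% of all. Its half-site TGACG, or CGTCA on the other strand, was searched after the data had been seen. It was present in 2 of the 10 windows, those of Ppargc1a (chr5:51567727-51567975, minus strand) and Tfb1m, and in 20.8% of all windows.
Perm1, 191 bases before the first annotated exon: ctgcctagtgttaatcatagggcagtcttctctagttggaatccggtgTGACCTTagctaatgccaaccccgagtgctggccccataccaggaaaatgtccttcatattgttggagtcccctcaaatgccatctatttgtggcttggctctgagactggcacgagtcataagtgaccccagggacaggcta
Ppargc1a, 249 bases before the upstream start: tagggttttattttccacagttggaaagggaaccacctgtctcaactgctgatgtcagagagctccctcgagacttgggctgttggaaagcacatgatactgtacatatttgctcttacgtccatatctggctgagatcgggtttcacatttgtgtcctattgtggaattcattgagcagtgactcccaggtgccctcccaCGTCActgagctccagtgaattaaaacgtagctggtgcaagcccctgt

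The libraries held 40825601 and 37329025 expected counts. A floor of 3 counts corresponded to 0.0735 CPM (replicate 1) and 0.0804 CPM (replicate 2), far below all 10 regulators, whose smallest total was 142 counts. The identity of the tissue was checked with 8 genes of skeletal muscle fibres, all of them detected, with summed levels of 92616 and 99415 TPM, the length-corrected share of transcripts, and with 6 genes of cardiac muscle, of which the defining Nppa and Nppb were at 0 counts in both libraries, while Myh6 had 54.5 and 49.0 TPM and Tnnt2 10.3 and 8.86 TPM. In bulk tissue a lower level can reflect fewer cells of a type or less RNA per cell, and these cannot be told apart.

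Perm1 was the most abundant regulator and Tfb1m the least, a span of more than an order of magnitude. Perm1, a muscle protein induced by PGC-1 and the oestrogen-related receptors (ENSMUSG00000078486.3, GRCm38 chromosome 4, 156215868 to 156221307), had 46.6 TPM in replicate 1 and 45.0 in replicate 2. Its mean of 45.8 ± 1.13 TPM (SD, n = 2) placed it at the 90.0th percentile of the protein-coding genes with at least 1 TPM. Perm1 has a single annotated transcript, so its level did not depend on how reads were divided between transcripts.

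Among the PGC-1 coactivators Ppargc1a had the highest mean level, and its level differed between the libraries more than that of any other regulator. Ppargc1a, which encodes PGC-1 alpha (ENSMUSG00000029167.13, chromosome 5, 51454250 to 51567726, minus strand), had 19.9 TPM in replicate 1 and 10.6 in replicate 2, from 2256 and 1221 expected counts. Ppargc1b, which encodes PGC-1 beta (ENSMUSG00000033871.14, chromosome 18, 61298136 to 61400431), had 6.22 TPM in replicate 1 and 8.13 in replicate 2. Pprc1, the most distant family member (ENSMUSG00000055491.14, chromosome 19, 46044886 to 46072915), had 5.21 TPM in replicate 1 and 5.90 in replicate 2. In TPM, replicate 1 was thus the library with more Ppargc1a and less of its relatives. The within-library ratio of Ppargc1a to Ppargc1b was 3.21 in replicate 1 and 1.30 in replicate 2, and that of Ppargc1a to Pprc1 was 3.83 and 1.79. Ppargc1a stood above both relatives in each library, but by how much depended on the library, and over transcripts of at least 1000 bases the ratio to Ppargc1b was 2.80 in replicate 1 and 0.991 in replicate 2. The ratio of Perm1 to Ppargc1a was 2.34 in replicate 1 and 4.26 in replicate 2, with the Perm1 level nearly equal in both.

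The nuclear factors Gabpa and Nrf1 had similar levels in both libraries, Gabpa above Nrf1. Gabpa, the DNA-binding ETS subunit of GABP (ENSMUSG00000008976.16, chromosome 16, 84834925 to 84863779), had 11.5 TPM in replicate 1 and 10.1 in replicate 2. Gabpb1, a gene for the partner subunit that carries the activation domain, had 3.32 and 3.75 TPM, so that the ratio of Gabpa to Gabpb1 was 3.47 in replicate 1 and 2.70 in replicate 2. Nrf1 (ENSMUSG00000058440.14, chromosome 6, 30047988 to 30153458) had 4.62 TPM in replicate 1 and 5.22 in replicate 2. The ratio of Nrf1 to Gabpa was 0.401 and 0.516. Gabpa overlaps Atp5j, a subunit gene of ATP synthase on the opposite strand with 518 and 523 TPM. The expected counts of Gabpa (1362 and 1158) and Atp5j (7362 and 6947) were whole numbers, and the posterior SD of the Gabpa count was 0. These values show no sign that the quantifier divided reads between the genes. Whether the counting used the strand is not given in the sources used here, and the assignment of reads from the overlap was not tested.

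Of the genes acting on mitochondrial DNA, Tfam had the highest TPM, but that place depended on short transcripts. Tfam (ENSMUSG00000003923.14, chromosome 10, 71225464 to 71238280) had 23.1 TPM in replicate 1 and 22.6 in replicate 2. Tfb2m (ENSMUSG00000026492.11, chromosome 1, 179528055 to 179546267) had 12.5 and 14.8 TPM, and Polrmt (ENSMUSG00000020329.12, chromosome 10, 79736123 to 79746581) had 9.70 and 9.74 TPM. Tfb1m (ENSMUSG00000036983.7, chromosome 17, 3519256 to 3557781), the paralogue of Tfb2m, had 3.42 and 3.63 TPM. The quantifier gave Tfb2m, alone among the regulators, a posterior SD of the count above 0 (11.1 and 9.55), and its expected counts were not whole numbers. Tfb1m overlaps Tiam2 on the opposite strand, which had 1.42 and 1.76 TPM. The order Tfam, Tfb2m, Polrmt, Tfb1m was the same in both libraries, and the values of neighbouring genes did not overlap. In replicate 1, however, the quantifier intervals of Tfb2m (11.1 to 14.8 TPM) and Polrmt (8.61 to 12.1 TPM) overlapped. The ratio of Tfam to Polrmt was 2.38 and 2.32, that of Tfam to Tfb2m 1.85 and 1.52, and that of Tfb2m to Tfb1m 3.65 and 4.09. When only transcripts of at least 1000 bases were counted, an alternative added after the data had been seen, Tfam had 5.59 TPM in replicate 1 and 5.31 in replicate 2. The ratio of Tfam to Polrmt then became 0.808 and 0.831 and that of Tfam to Tfb2m 0.522 and 0.524, so both ratios changed sides of 1. Polrmt on that scale had 6.92 and 6.39 TPM and Tfb2m 10.7 and 10.1 TPM. The cut also removed Tfam-202 (779 bases) and Tfam-203 (899 bases), annotated as protein-coding with 645 and 597 coding bases. Reads of the removed transcripts were not reassigned, so the cut lowers Tfam by its design.

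**Figure D1:**
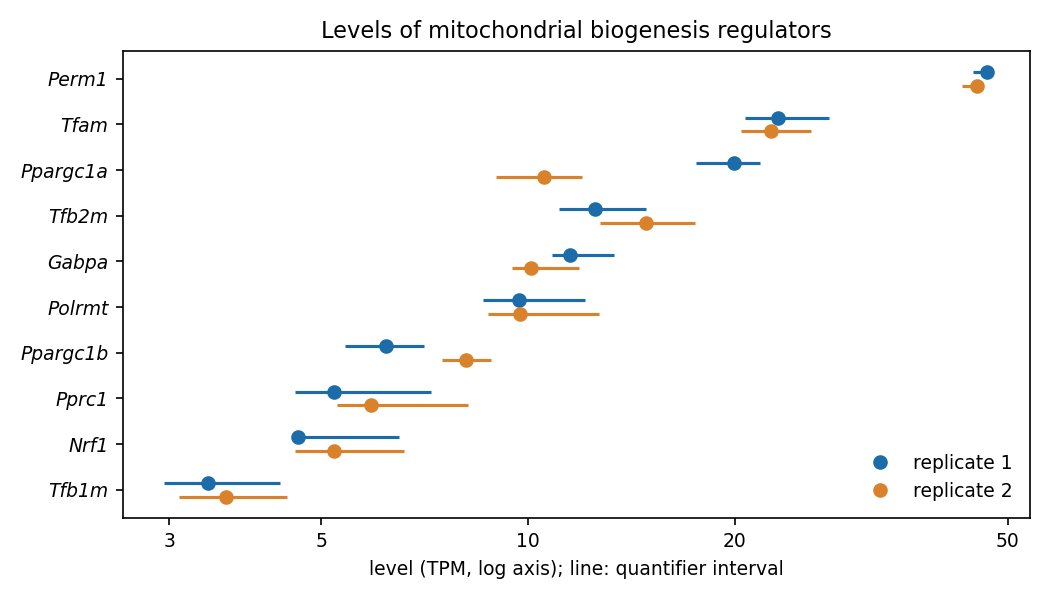
Level of each regulator in TPM (log axis) in replicate 1 (blue) and replicate 2 (orange), ordered by mean, with lines for the interval given by the authors' quantifier. Perm1 lies at 46.6 and 45.0 TPM, and the points of Ppargc1a (19.9 and 10.6 TPM) stand farthest apart.

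By mean TPM the full order was Perm1, Tfam, Ppargc1a, Tfb2m, Gabpa, Polrmt, Ppargc1b, Pprc1, Nrf1 and Tfb1m. The lowest, Tfb1m, stood at the 27.0th percentile of protein-coding genes with at least 1 TPM. For 2 pairs of neighbours the values of the libraries overlapped, Ppargc1a with Tfb2m and Pprc1 with Nrf1, and no difference in level within these pairs was shown. Quantifier intervals overlapped within further pairs. For Gabpa with Polrmt and Ppargc1b with Pprc1 they overlapped in both libraries. For Tfam with Ppargc1a and Tfb2m with Gabpa they overlapped in replicate 1, and for Polrmt with Ppargc1b in replicate 2. By posterior mean Polrmt (10.67 TPM) stood above Gabpa (10.63 TPM) in replicate 2. The order within these pairs is therefore uncertain. In replicate 2 Tfb2m stood above Ppargc1a, while in replicate 1 it stood below. In the second quantification Gabpa stood above Tfb2m and Nrf1 above Pprc1. With transcripts of at least 1000 bases only, the order became Perm1, Ppargc1a, Gabpa, Tfb2m, Polrmt, Ppargc1b, Tfam, Nrf1, Tfb1m and Pprc1.

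Between the libraries, 3 of the 10 regulators differed by more than counting noise. Rounded expected counts were compared by an exact binomial test (two-sided) against TMM-scaled library sizes, with Benjamini-Hochberg adjustment over all 17245 annotated genes that had at least 10 counts. By this test 3704 genes, 21.5% of those tested, were called, 10.9% higher in replicate 2 and 10.6% higher in replicate 1. Among genes with at least 200 counts, which include all 10 regulators, the share was 29.7%. The count of 3 in 10 is therefore near the background. The p-values cover counting error between these libraries only and say nothing of a wider population.

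Ppargc1a was 1.66-fold higher in replicate 1 by scaled counts (log2 ratio of replicate 2 over replicate 1 -0.73, 95% counting interval -0.83 to -0.63, exact binomial test, adjusted p = 2.9e-46). In TPM the fold was 1.89, while the mean transcript length that the authors' quantifier assigned to the gene was 3632 bases in replicate 1 and 3958 bases in replicate 2. The quantifier's own intervals, 17.6 to 21.8 TPM for replicate 1 and 8.99 to 12.0 TPM for replicate 2, did not overlap.

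Ppargc1b moved the other way and was 1.60-fold higher in replicate 2 by scaled counts, from 586 and 842 expected counts (log2 ratio 0.68, interval 0.52 to 0.83, exact binomial test, adjusted p = 6.7e-17). In TPM the fold was 1.31. Its quantifier intervals, 5.42 to 7.06 TPM and 7.49 to 8.83 TPM, did not overlap either. Pprc1 was 1.20-fold higher in replicate 2, with 510 and 551 counts (log2 ratio 0.26, interval 0.09 to 0.44, exact binomial test, adjusted p = 0.0185). The intervals of Pprc1 overlapped, and Pprc1 overlaps Ldb1, a cofactor gene on the opposite strand with 12.9 and 10.3 TPM.

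The 7 other regulators did not pass the test. Their log2 count ratios ran from -0.08 for Gabpa to 0.14 for Tfb1m, and the widest interval, that of Tfb1m with 143 and 142 counts, reached from -0.20 to 0.49. For Perm1, with 5676 and 5128 counts, the interval was narrow, from -0.05 to 0.06. All of these ratios are relative to TMM scaling. When the libraries were scaled to the added ERCC RNAs instead, the median log2 ratio of all tested genes moved from -0.01 to -0.30, 52.5% of genes were called and only 3.27% of the calls were higher in replicate 2. On that scale 7 regulators were called, and only Ppargc1b was higher in replicate 2, while Pprc1 was no longer called (log2 ratio -0.03, exact binomial test, adjusted p = 0.813).

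**Figure D2:**
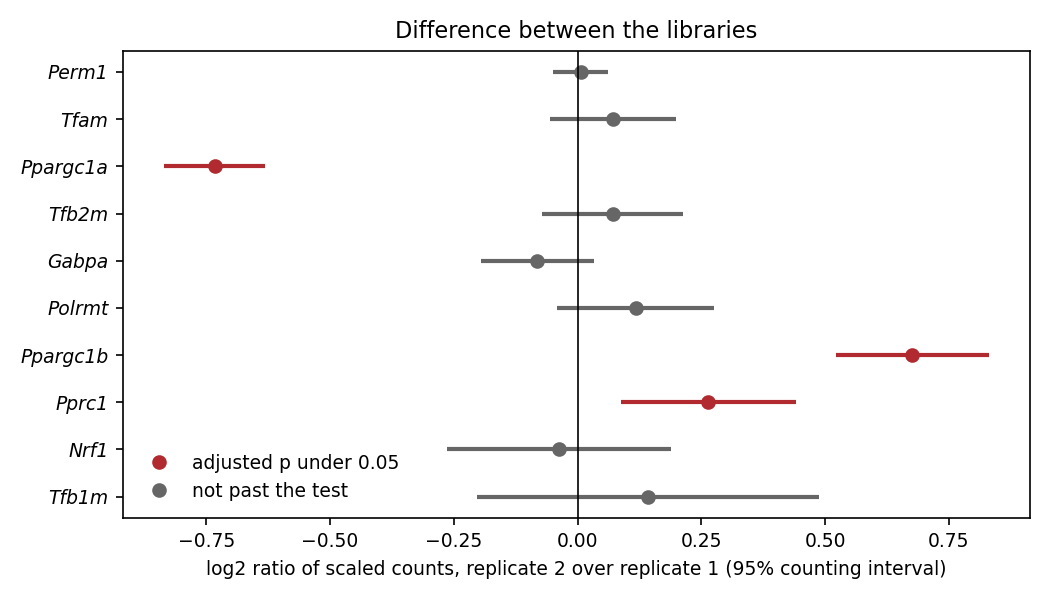
Log2 ratio of TMM-scaled counts, replicate 2 over replicate 1, for each regulator, with 95% counting intervals and red for an adjusted p under 0.05. Ppargc1a lies at -0.73 and Ppargc1b at 0.68, and the intervals of the 7 grey genes include 0.

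The transcripts of Ppargc1a were examined because the gene has a proximal and an upstream promoter. The upstream start lies 13.8 kb before the proximal one, and the first exons encode different N-termini. The annotated coding bases of these exons (GRCm38, chr5:51553735-51553782 for the proximal and chr5:51567630-51567665 for the upstream exon, both on the minus strand) are shown with the start codon in capitals, since they are what tells the transcripts apart.
Proximal first exon, 48 coding bases: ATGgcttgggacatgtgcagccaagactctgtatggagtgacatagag
Upstream first exon, 36 coding bases: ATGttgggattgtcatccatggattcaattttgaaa

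The full-length transcript Ppargc1a-203 from the proximal start (6464 bases, 797 codons) led in both libraries and in both quantifications. It had 8.19 TPM in replicate 1 and 4.92 in replicate 2, or 41.1% and 46.6% of the gene's TPM and 74.0% and 76.8% of its expected counts. Transcripts from the upstream exon, Ppargc1a-202 and Ppargc1a-204, summed to 8.30 TPM in replicate 1 and 2.75 in replicate 2, a 3.02-fold difference. Those from the proximal exon summed to 11.6 TPM and 7.81 TPM, a 1.49-fold difference. Both groups were thus higher in replicate 1, and the upstream share of TPM was 41.6% in replicate 1 and 26.0% in replicate 2. The second quantification, made from the reads with an index, gave 47.7% and 37.1%. These shares lean on a short annotated fragment: Ppargc1a-202 is 488 bases long and took 27.5% and 26.0% of TPM from only 3.03% and 2.62% of the counts. Of the expected counts, 12.4% in replicate 1 and 2.62% in replicate 2 were assigned to the upstream group. Ppargc1a-204 accounted for most of that change, with 212 counts in replicate 1 and 0 in replicate 2, but the second quantification assigned it 266 and 96.6 counts. The grouping by first exon was made after the data had been seen, and the difference in share between the libraries was not tested.

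A second feature is an internal exon extended by 31 bases (chr5:51490091-51490121, minus strand), which places a stop codon early in the reading frame. PGC-1 alpha shortened in this way, NT-PGC-1 alpha, is known to lack most of the C-terminal part while keeping the activation domain. Below, 10 exon bases are followed by the extension up to its stop, in capitals, and by the same place in the full-length transcript.
Extended exon, Ppargc1a-201 and Ppargc1a-204: agtcaccaaatttgtttttaTAA
Regular exon, Ppargc1a-203: agtcaccaaatgaccccaagggt

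The extended reading frames hold 270 codons in Ppargc1a-201 and 266 in Ppargc1a-204, both of which the annotation lists under nonsense-mediated decay. Together they held 4.22 TPM in replicate 1 and 2.40 in replicate 2, that is 21.2% and 22.7% of the gene. The second quantification gave 23.3% and 28.3%. Within the pair the split was unstable: Ppargc1a-201 had 1.40 and 2.40 TPM, and Ppargc1a-204 had 2.82 and 0 TPM. The summed share of the extended form differed far less between the libraries than the level of the gene did.

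Transcripts of the other regulators varied in how firmly they could be assigned. The leading transcript was the same in both libraries for 9 of the 10 regulators, and in both libraries and both quantifications for 8. Pprc1 and Tfam were the exceptions. For Pprc1 the leader was Pprc1-201 in replicate 1, with 36.0% of TPM, and the 386-base Pprc1-208 in replicate 2, with 32.6% of TPM but 3.00% of the counts. For Tfam the 779-base Tfam-202 led with 40.9% and 65.1% of TPM, while the 4167-base Tfam-201 held 24.2% and 23.5% of TPM and 70.2% and 66.0% of the counts. In the second quantification the largest share of Tfam TPM went to Tfam-203 (56.9% and 44.1%), which took 0.995% and 1.99% in the first. Tfam-205, of 472 bases, took 30.1% and 9.35% in the first quantification and 0% in the second.

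Gabpa and Tfb1m kept similar transcript shares in both libraries. Gabpa-201 and Gabpa-202, which have coding regions of the same length, took 58.7% and 37.7% of TPM in replicate 1 and 63.0% and 34.4% in replicate 2, while the second quantification gave 22.8% and 22.0% to the noncoding Gabpa-203, listed at 0 in the first. Tfb1m-201 took 99.7% and 99.5%. Tfb2m-201 took 85.6% and 68.4%, the rest coming largely from the noncoding Tfb2m-205 with 8.72% and 19.9%. Ppargc1b-202 took 65.7% in replicate 1 and 96.9% in replicate 2 in the first quantification but 55.1% and 60.2% in the second, so its apparent gain was not shared by both.

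Polrmt and Nrf1 were split between many transcripts. Polrmt-201, the leader, held 37.6% and 41.4% of TPM and 64.8% and 68.7% of the counts. The noncoding Polrmt-205, of 374 bases, held 24.2% and 31.9% of TPM but 0% in the second quantification, and Polrmt-209 and Polrmt-202 had mean shares of 15.9 ± 6.62% and 10.6 ± 2.21% (SD, n = 2). Nrf1 has 20 annotated transcripts, led by Nrf1-210 with 35.6% and 28.4%. Nrf1-207 took 34.8% in replicate 1 and 1.92% in replicate 2, Nrf1-219 took 3.48% and 24.0%, and the 503-base Nrf1-216 took 5.65% and 16.3%. The second quantification gave 16.04% and 8.19% to Nrf1-207, 8.38% and 15.2% to Nrf1-219 and 0% to Nrf1-216. The level of Nrf1 as a gene was nearly equal in both libraries while these shares differed between libraries and between quantifications.

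The regulators were then read beside 154 genes of their pathway in 8 lists. By the same test 69 of the 154 (44.8%) were called, 37 toward replicate 2 and 32 toward replicate 1. The called share was 21.5% among all genes tested and 29.7% among those with at least 200 counts. The median log2 count ratio over all genes tested was -0.01. The test calls smaller differences at higher counts, as for Cox4i1 (16442 and 15399 counts, log2 count ratio 0.06). These shares therefore do not show an enrichment of the pathway. The 154 genes were also listed with earlier results of these data known. The counts below are at TMM scaling. Scaled to ERCC RNAs, 117 were called, 114 toward replicate 1 and only Mef2c, Prkag3 and mt-Co3 toward replicate 2, so every other call of a pathway gene toward replicate 2 given below was lost or turned on that scale.

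Of 20 partner transcription factors, 4 were higher in replicate 2 and 5 higher in replicate 1, with a median log2 ratio of 0.02. Ppara, the fatty acid receptor that works with PGC-1 alpha on fat oxidation, had 7.35 TPM in replicate 1 and 3.42 in replicate 2, the largest called difference of the list toward replicate 1 (log2 count ratio -1.02, exact binomial test, adjusted p = 9.3e-20). Foxo1, another factor of the list that was picked after its values were seen, had 14.8 and 7.53 TPM. Both were higher in replicate 1, which also had more Ppargc1a. With 2 libraries, whether they vary together with Ppargc1a was not tested. Rxrg, a retinoid receptor partner, was higher in replicate 2 with 11.9 and 14.8 TPM. The most abundant members were Mef2c (117 and 141 TPM, higher in replicate 2), Mef2d (61.4 and 62.9 TPM) and the thyroid hormone receptor Thra (41.4 and 39.6 TPM), of which the latter pair did not pass the test. Of the oestrogen-related receptors, Esrra had 23.5 and 25.9 TPM and Esrrg 7.31 and 6.42 TPM, a ratio of 3.21 in replicate 1 and 4.03 in replicate 2.

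Of 16 coregulators 4 were higher in replicate 2 and 3 in replicate 1, with a median log2 ratio of 0.04. Lpin1, a phosphatidate phosphatase that also coactivates with PGC-1 alpha, had 52.7 TPM in replicate 1 and 36.3 in replicate 2 (log2 count ratio -0.45, exact binomial test, adjusted p = 1.1e-66). Nrip1, a corepressor of oxidative genes, had 16.6 and 21.7 TPM and was higher in replicate 2 (log2 count ratio 0.30, exact binomial test, adjusted p = 2.2e-14). Prmt1, a methyltransferase of PGC-1 alpha, and Smarcd3, a chromatin remodelling subunit, were also higher in replicate 2, with 64.9 and 80.2 TPM and with 42.9 and 50.2 TPM. The corepressor Ncor1 had 52.4 and 52.9 TPM and did not pass the test.

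Of 19 signalling genes upstream of the coactivators, 5 were higher in replicate 2 and 2 in replicate 1, with a median log2 ratio of 0.02. Prkag3, the AMPK subunit of fast glycolytic muscle, had 34.4 TPM in replicate 1 and 46.6 in replicate 2 (log2 count ratio 0.49, exact binomial test, adjusted p = 2.0e-41). Crtc2, a coactivator of CREB, had 6.10 and 4.39 TPM and was the largest called difference toward replicate 1. Camk2a and the calcineurin subunit Ppp3ca were higher in replicate 2 by log2 count ratios of 0.16 and 0.09. Ppp3cb, with 48.2 and 47.2 TPM, did not pass the test.

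The lists closest to Tfam and Polrmt held few calls. Of 23 genes of mitochondrial DNA replication and transcription, 3 were higher in replicate 2 and 0 in replicate 1, 13.0% of the list, with a median log2 ratio of 0.07. The most abundant, the protease Lonp1, the carrier Slc25a36 and the DNA polymerase Polg, had 24.6 and 24.2, 16.8 and 14.6, and 14.9 and 13.0 TPM, and none passed the test. Atad3a, a membrane protein linked to mitochondrial nucleoids, had 10.8 and 12.3 TPM and was higher in replicate 2 (log2 count ratio 0.32, exact binomial test, adjusted p = 2.7e-04). Of 22 genes of mitochondrial RNA processing and stability 3 were higher in replicate 2 and 0 in replicate 1, 13.6% of the list, with a median of 0.08. Slirp (69.7 and 69.8 TPM), Fastk (65.8 and 67.2 TPM) and Grsf1 (54.3 and 50.6 TPM), which bind or stabilise mitochondrial transcripts, did not pass the test, and the deadenylase Pde12 had 1.25 and 1.56 TPM and was higher in replicate 2. Both shares lay below the background, while scaled to ERCC RNAs 9 and 11 genes of these lists were called, each of them higher in replicate 1.

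Most respiratory chain genes were far more abundant than the regulators, and their differences were small. The exceptions in level were Cox6a1 (47.3 and 45.7 TPM) and Cycs (52.0 and 52.0 TPM), close to Perm1 and named after their values were seen. In the second quantification Cox6a1 had 78.2 and 74.7 TPM and Perm1 62.5 and 61.1 TPM. Cycs had 701 and 730 TPM there, so its low level was not shared by both quantifications. Of 21 nuclear respiratory chain genes, 13 were higher in replicate 2 and 0 in replicate 1 at TMM scaling, but their log2 ratios were at most 0.11, and with total counts as the scale 4 were higher in replicate 2 and 1 in replicate 1, and with ERCC RNAs all 21 were higher in replicate 1. Atp5b and Atp5a1, subunits of ATP synthase, had 2008 and 1935 TPM and 975 and 949 TPM. Cox5a had 624 and 645 TPM and the largest ratio, 0.11. Cox4i1 had 810 and 805 TPM, lower in replicate 2 in TPM but higher by scaled counts (0.06). The sum over the list was 10030 TPM in replicate 1 and 9948 in replicate 2.

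Of 15 genes of the mitochondrial genome, which TFAM and POLRMT transcribe, 12 were higher in replicate 1 and 1 in replicate 2, with a median log2 ratio of -0.09, and their sum was 155066 and 139467 TPM. The ribosomal RNAs mt-Rnr2 and mt-Rnr1 had 66420 and 59902 TPM and 39422 and 34474 TPM. The oxidase subunit mt-Co1 had 11820 and 10885 TPM (log2 count ratio -0.06), and mt-Atp8, with 4258 and 3283 TPM, had the largest ratio toward replicate 1, -0.32. The exception, mt-Co3, had 1152 and 1833 TPM. Nuclear copies nearly identical to mitochondrial genes can take part of their reads, and the quantifications divided reads of these genes differently. In the second, mt-Atp8 was listed at 0 in both libraries, mt-Co3 had 3051 and 3581 TPM, and 10 genes were higher in replicate 1 and 3 in replicate 2. Further genes, picked after their values were seen, also differed between the quantifications. For mt-Nd4l the first gave 3497 and 3088 TPM and the second 19.7 and 26.2 TPM. For mt-Co2 they gave 92.7 and 82.8 TPM and 897 and 984 TPM, and for mt-Atp6 4378 and 4142 TPM and 15551 and 14372 TPM. The values of mt-Atp8, mt-Co3, mt-Nd4l, mt-Co2 and mt-Atp6 are therefore uncertain. Tfam and Polrmt themselves did not pass the test.

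Genes known to be induced by PGC-1 alpha in muscle included the largest differences of the 8 lists. Of 18 genes, 10 were higher in replicate 1, the library with more Ppargc1a, and 4 in replicate 2 (16 and 0 when scaled to ERCC RNAs), with a median log2 ratio of -0.12, against -0.01 for all genes tested. Angptl4, an inhibitor of lipoprotein lipase, had 11.7 TPM in replicate 1 and 3.36 in replicate 2 (log2 count ratio -1.69, exact binomial test, adjusted p = 8.1e-56). Pdk4, the kinase that shuts pyruvate out of oxidation, had 893 and 317 TPM (log2 count ratio -1.44), and Ucp3, an uncoupling protein of muscle named after its values were seen, 89.1 and 50.9 TPM. These 3 genes were all higher in replicate 1. The abundant mitochondrial creatine kinase Ckmt2 differed little, with 414 and 411 TPM (log2 count ratio 0.05). Slc16a1, a carrier of lactate, was the largest called difference toward replicate 2, with 9.21 and 10.2 TPM. With 2 libraries, whether Ppargc1a and these genes vary together was not tested.

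**Figure D3:**
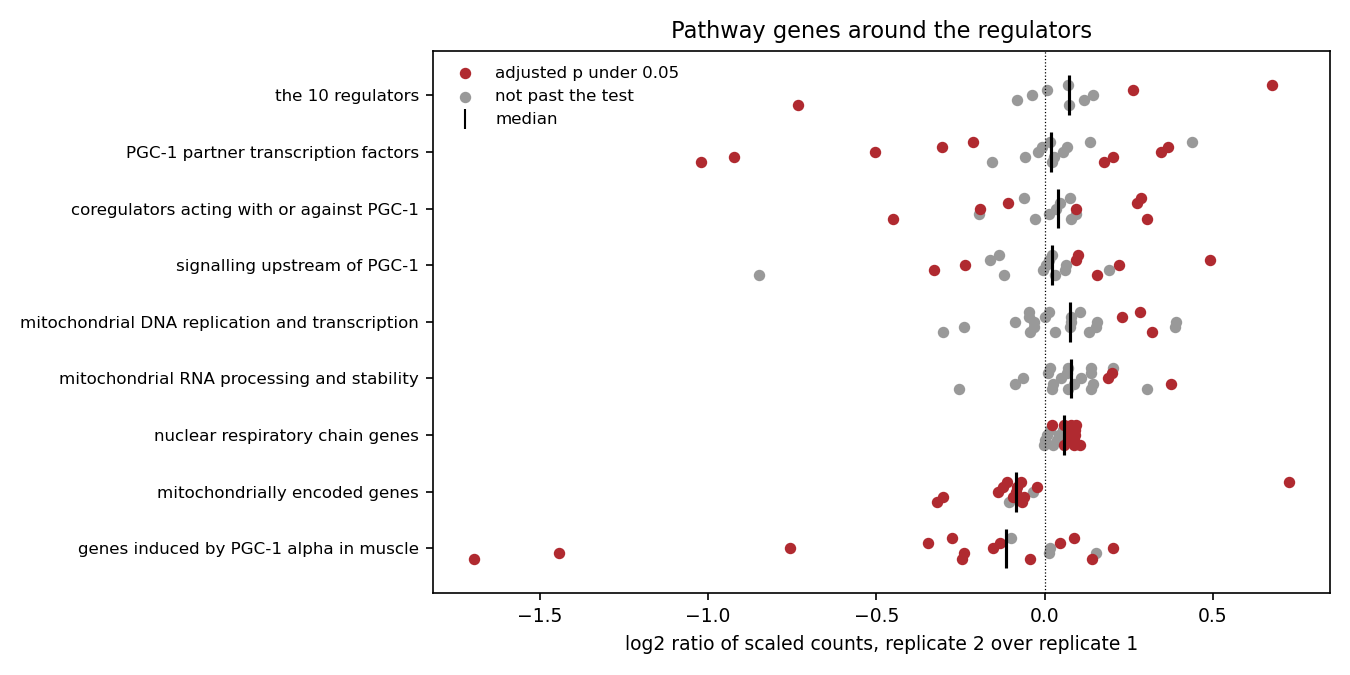
Log2 ratio of TMM-scaled counts, replicate 2 over replicate 1, for the 10 regulators and the genes of 8 pathway lists, red where the adjusted p was under 0.05, with a vertical bar at each median. Nuclear respiratory chain genes lie within 0.11 of 0, while the genes induced by PGC-1 alpha reach from -1.69 to 0.20.

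Markers of other cell types also differed between the libraries, and their part in the differences above was not tested. The calls below are at TMM scaling, where 21.5% of all genes tested and 29.7% of those with at least 200 counts were called. They were not summarised on the ERCC scale, where only 3.27% of all calls were higher in replicate 2. Of 8 adipocyte markers, 5 were higher in replicate 2, among them Adipoq (0.42 and 2.24 TPM), Plin1 (0.22 and 2.07 TPM) and Ucp1 (1 and 20 counts), and Fabp4 was higher in replicate 1 (171 and 130 TPM), so that the summed level was 175 and 147 TPM. Of the markers of brown fat, Cidea had 2.15 and 1.28 TPM (70 and 39 counts) and did not pass the test, and Elovl3 was at 0 counts in both libraries. Of 6 endothelial markers 4 were higher in replicate 1 (summed 168 and 143 TPM), as were 4 of 6 markers of fibro-adipogenic progenitors (1851 and 1349 TPM). Of 6 Schwann cell markers 3 were higher in replicate 2 (120 and 166 TPM), as were 5 of 6 erythroid markers (1393 and 1958 TPM) and 7 of 8 muscle fibre genes. Of 6 macrophage markers 1 was higher in replicate 1 (30.1 and 28.6 TPM), and of the 4 cardiac markers that could be tested none passed the exact binomial test (1 in each direction at an unadjusted p under 0.05).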

How the data were processed

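Total RNA-seq of 2 libraries of 1 group was used. The authors deposited, per the file headers, expected counts, TPM, and lower and upper interval bounds of the TPM signal per gene, transcript tables with the percent of each transcript in its gene, and a second transcript quantification with estimated counts and TPM. The build is mm10 with GENCODE M21, per the labels and the deposited description; the sources used here do not state the aligner, quantifier or strand setting. TPM includes ERCC RNAs, and 26248 entries with numeric identifiers were left out. Reads were not separated by allele.

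Expected counts were rounded, and libraries were scaled by TMM (edgeR 4.0.16, R 4.3.3). With 1 library against 1, edgeR's quasi-likelihood test has no residual degrees of freedom, so a two-sided exact binomial test (scipy 1.17.1) was used for genes with at least 10 counts, adjusted by Benjamini-Hochberg over 17245 genes, with a threshold of 0.05. The test was checked on simulated counts with set fold changes and counting noise only. That is the setting the test assumes, and other variation between libraries was left out. With 2 values a gene, an exact permutation test between genes cannot go below 0.333. Transcript shares were computed from TPM. Intervals and floors cover counting error only. Alternatives were DESeq2 1.42.0 size factors, total and ERCC scaling, count filters, pseudocounts of 1 and 0.1 on TPM, the second quantification, posterior mean TPM, TPM rescaled over nuclear protein-coding genes, each library alone, and, added after the data had been seen, transcripts of at least 1000 bases.

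The regulators, gene lists and markers were chosen with earlier results of these data known. Named are all regulators, genes of the ratios, of each list the 3 highest by mean TPM and the called gene with the largest log2 count ratio in each direction, and transcripts averaging 10% or more of their gene; genes outside the rule are marked, the markers are described by list, and Gabpa-203, Tfam-203, Ppargc1a-204 and genes overlapping a regulator are named outside it, after their values were seen. A gene named by the rule is left out of the text. Sequences are from RefSeq (GRCm38.p6) and the M21 transcripts.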

Additional observations from a re-analysis of the deposited data

How the results depend on the processing

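Of 60 recomputed calls of single regulators, 54 were kept. The others all came from ERCC scaling, which turned Tfam (-0.22), Tfb2m (-0.22), Perm1 (-0.29) and Pprc1 (-0.03) toward replicate 1 on the log2 scale and brought Gabpa (-0.38) and Nrf1 (-0.33) past the threshold. It raised the called regulators from 3 to 7 and the called pathway genes from 69 to 117 (partner factors 9 to 16, coregulators 7 to 12, signalling 7 to 17, replication and transcription 3 to 9, RNA processing 3 to 11, nuclear respiratory chain 13 to 21), among 9052 called genes in place of 3704; scaling to total counts gave 5 nuclear respiratory calls in place of 13; the log2 difference of Pprc1 in TPM, 0.15, became -0.03 in ERCC-scaled counts. Calls of Ppargc1a and Ppargc1b were kept in direction under each scaling, filter and quantification run. The median level of the regulators, 10.3 TPM, was 14.1 TPM in the second quantification, 21.9 TPM when rescaled over nuclear protein-coding genes, 10.9 TPM as a posterior mean, and 6.59 TPM over transcripts of at least 1000 bases. The ratio of Ppargc1a to Pprc1 was 4.54 and that of Gabpa to Gabpb1 3.66 in the second quantification; that of Tfam to Polrmt was 3.21 in the second quantification, 2.24 with posterior means and 0.819 over long transcripts. Over long transcripts Tfam to Tfb2m was 0.523, Tfb2m to Tfb1m 2.97 and Esrra to Esrrg 4.31. The mean upstream share of Ppargc1a, 33.8% of TPM, was 7.53% of expected counts, and the extended-exon share, 21.9%, was 25.8% in the second quantification and 16.3% of counts. With 1 library left out, the median level ran from 9.92 to 10.6 TPM, Ppargc1a to Ppargc1b from 1.30 to 3.21 and Ppargc1a to Pprc1 from 1.79 to 3.83, and no test between libraries was left. No paired analysis was possible because there is 1 group. Except where short transcripts or the scale itself set a value, the cause was not tested. Depth limits Tfb1m most, and short transcripts limit TPM shares.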
